A study of Mus musculus with 8 samples.

Results

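Haematopoietic stem cells differ in what they make: some give rise mainly to myeloid cells and platelets, others to a balanced or lymphoid-leaning output. The myeloid-leaning kind accumulates with age. The 7 genes described here, Clu, Aldh1a1, Nupr1, Neo1, Fhl1, Jam2 and Runx1t1, are named as markers of such cells, and were picked by symbol out of 23284 genes in a table of raw read counts. All 7 were in the table and all 7 had enough reads to be tested.

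RNA came from LSK cells of mouse bone marrow, which lack lineage markers and carry Sca-1 and c-Kit, the gate that holds stem cells and multipotent progenitors. The mice were on a C57BL/6 background and all carried a green fluorescent protein reporter for Hdc, the gene of the histamine-making enzyme. The labels give neither their age nor the construct of the reporter. LSK cells were sorted by GFP into Hdc-GFPhi (n = 4 libraries) and Hdc-GFPlo (n = 4 libraries), with 2000 cells per library. One cell type label of the high fraction (replicate 4) reads GFP+ where the others read GFPhi. Whether each replicate is its own animal is not labelled, so every p-value here reflects variation among libraries, some of which may be technical. Hdc-GFPlo replicate 3 stood apart from its fraction: a chi-square of its counts per degree of freedom was 49.8 to 55.4 against the other low libraries, which gave 13.3 to 18.2 among themselves, and the high libraries gave 18.5 to 38.2. It also had the lowest Kit level, 748 CPM (read counts divided by library size, with edgeR's TMM scaling).

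As background, the genes fall into 3 roles. Clu, Jam2 and Neo1 act at or outside the cell surface: clusterin is a secreted chaperone, Jam2 is an adhesion molecule of the immunoglobulin superfamily, and neogenin is a receptor for netrins and repulsive guidance molecules. Aldh1a1 is an enzyme that oxidises retinaldehyde to retinoic acid, and aldehyde dehydrogenase activity is widely used to enrich stem cells. Fhl1, Nupr1 and Runx1t1 act inside the cell: Fhl1 is a LIM domain scaffold, Nupr1 a small stress-induced chromatin protein, and Runx1t1 (ETO) a corepressor known as the fusion partner of RUNX1 in acute myeloid leukaemia.

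All 7 genes had a higher fitted level in Hdc-GFPhi, but the size ran from almost none for Clu to over 2-fold for Neo1 and Runx1t1, and none passed the test over all genes. Fhl1 came closest, at 1.76-fold, and was the member with no overlap between fractions. A gene is said to be called where its Benjamini-Hochberg adjusted p from edgeR's quasi-likelihood test was under 0.05. It called 0 of the 7 genes, where 0.241% of 13300 tested genes were called higher and 0.947% were called in either direction. DESeq2, which called 404 genes in all against 126 for edgeR, called 1 of the 7 (Fhl1). Limma voom, which called 278 genes in all, called 0. Without Hdc-GFPlo replicate 3, edgeR still called 0, Fhl1 was at 0.93 (log2, adjusted p = 0.0849), Neo1 at 0.98 and Clu at -0.015. An unadjusted p under 0.05 was reached by 3 of the 7 (Fhl1, Runx1t1 and Neo1), where 5.33% of tested genes reached it with a higher level. A log2 fold change of at least 1 was seen for 2 of the 7 (Runx1t1 and Neo1) and in 1.17% of tested genes. The median log2 fold change of the 7 was 0.56, against -0.00045 over all tested genes, and 49.9% of tested genes had a value above 0. In bulk RNA, more cells of a kind and more RNA per cell cannot be told apart.

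The upstream sequence of Fhl1, the gene whose fractions did not overlap, is shown with those of Nupr1 and Neo1, which differ from it in base composition. The RefSeq promoter table (GRCm38.p6) matched 4 of the 7 genes, Aldh1a1, Nupr1, Neo1 and Fhl1. Each window is the 250 bases before an annotated start, 5′ to 3′ along the gene's strand. Capitals mark any of 9 short motifs searched on both strands. These were AGATAA for the GATA factors, TGTGGT for the RUNX family, TGANTCA for AP-1 and TGATGNAA for the composite site of ATF4 with a C/EBP protein. The others were AGGAAGT for the ETS family, CAGNTG for E-box proteins, TGACGTCA for the cyclic AMP response element, TATAAA for the TATA box and GGGCGG for Sp1. A position held by more than 1 motif is capitalised once. No read or peak in this study bears on these windows directly.
Fhl1, first start (chrX:56779433-56779682, + strand): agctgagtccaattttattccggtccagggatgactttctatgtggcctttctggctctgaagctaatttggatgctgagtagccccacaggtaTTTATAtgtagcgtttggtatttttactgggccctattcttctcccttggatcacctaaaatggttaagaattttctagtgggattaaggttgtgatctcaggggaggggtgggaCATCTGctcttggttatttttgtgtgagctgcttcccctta
Fhl1, second start (chrX:56786277-56786526, + strand): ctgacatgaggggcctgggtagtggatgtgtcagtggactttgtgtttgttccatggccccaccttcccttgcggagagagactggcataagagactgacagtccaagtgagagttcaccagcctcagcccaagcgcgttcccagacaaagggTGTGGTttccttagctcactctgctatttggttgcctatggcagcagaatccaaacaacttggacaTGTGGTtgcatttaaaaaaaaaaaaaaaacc
Nupr1 (chr7:126625471-126625720, - strand): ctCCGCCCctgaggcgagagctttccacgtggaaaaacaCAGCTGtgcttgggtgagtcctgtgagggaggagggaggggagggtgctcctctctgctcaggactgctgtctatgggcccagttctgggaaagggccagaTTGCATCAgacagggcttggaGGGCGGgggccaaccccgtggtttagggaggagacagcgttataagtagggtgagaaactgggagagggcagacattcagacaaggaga
Neo1 (chr9:59036442-59036691, - strand): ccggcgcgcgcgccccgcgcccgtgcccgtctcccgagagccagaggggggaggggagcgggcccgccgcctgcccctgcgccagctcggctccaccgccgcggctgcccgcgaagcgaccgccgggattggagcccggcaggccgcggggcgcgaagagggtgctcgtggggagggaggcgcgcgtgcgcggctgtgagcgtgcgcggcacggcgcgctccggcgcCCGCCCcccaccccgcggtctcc

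The second Fhl1 window held 2 forward RUNX motifs, 97 and 31 bases before the start, a motif found in 14% of 32851 promoter windows of the same length. The first Fhl1 window held an E-box 41 bases before the start (44.8% of windows) and a reverse TATA-box motif (12.4%). Nupr1 held a reverse ATF4 and C/EBP motif 110 bases before the start (3.45% of windows), with an E-box and 2 Sp1 motifs. The Neo1 window was 83.2% G and C with 45 CpG, above the median window (52.4% and 6), and held 1 Sp1 motif. The Fhl1 windows were 44.4% and 49.2% G and C, with 2 and 3 CpG. Of the Aldh1a1 windows, not printed, the second held AGATAA 32 bases before the start (9.99% of windows). A match describes letters and is no evidence of binding.

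Fhl1 was the most abundant of the 7 by reads. It had 9.68, 14.6, 14.4 and 14.5 CPM in Hdc-GFPhi replicates 1 to 4, and 6.46, 5.76, 9.14 and 8.87 CPM in Hdc-GFPlo replicates 1 to 4. All 4 high libraries lay above all 4 low ones, though Hdc-GFPhi replicate 1 was close to the top of the low fraction. The same separation, high above low, was seen in 3.38% of tested genes. The means were 13.3 ± 2.42 and 7.56 ± 1.70 CPM (SD, n = 4 each), and the log2 fold change was 0.82 ± 0.21 (SE, 95% interval 0.35 to 1.28, edgeR adjusted p = 0.116). By its p, Fhl1 ranked 96 among the genes with a higher level in Hdc-GFPhi. DESeq2 called it (adjusted p = 0.0143), as did a fit with a covariate that sets replicates 1 and 2 apart from 3 and 4 (0.0339). Those fits called 404 and 275 genes in all, against 126 in the main fit. Over 21 alternatives the adjusted p of Fhl1 ran from 0.0143 to 0.764. Its log2 fold change was 0.99 within replicates 1 and 2 alone and 0.68 within replicates 3 and 4 alone.

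**Figure D1:**
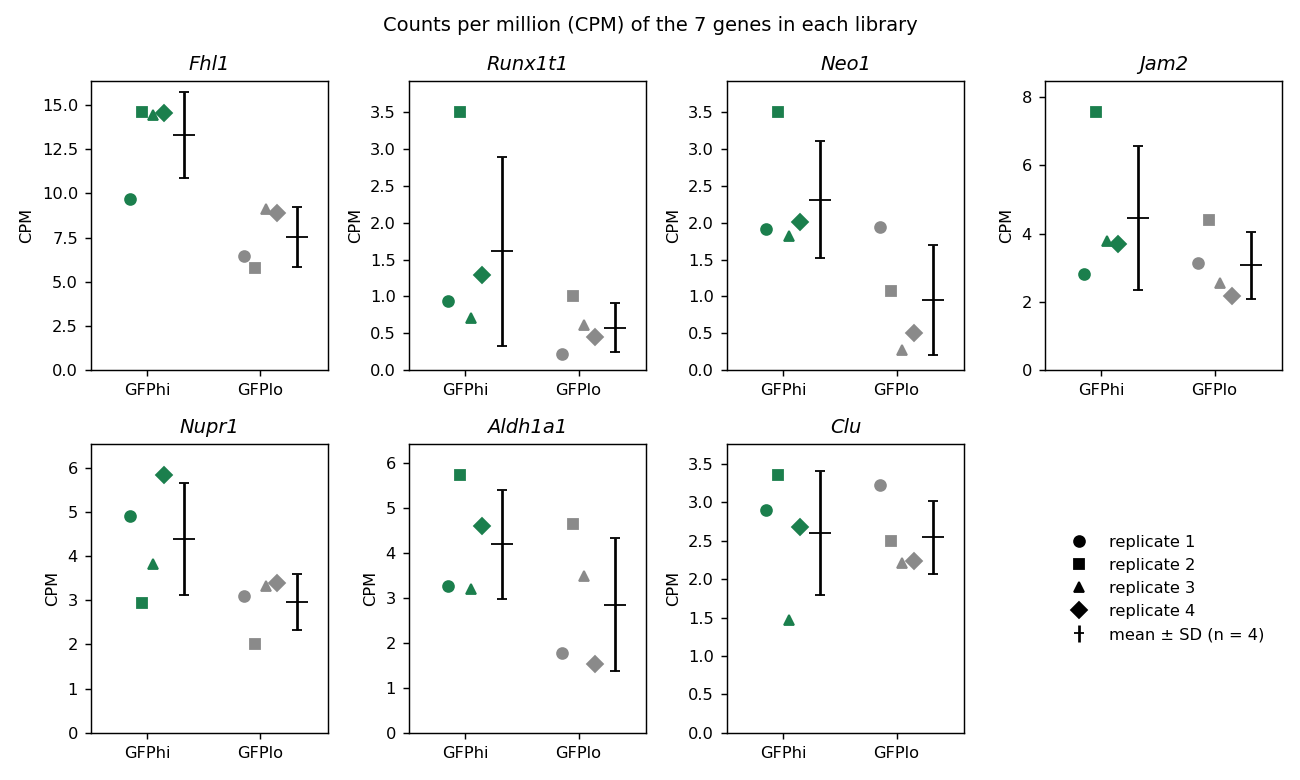
CPM of the 7 genes (y axes, linear, from 0) in each of the 4 Hdc-GFPhi (green) and 4 Hdc-GFPlo (grey) libraries; the symbol gives the replicate number and black bars the mean ± SD. Fhl1 is the panel in which the fractions do not overlap, and Hdc-GFPhi replicate 2 (square) is the highest of its fraction in 6 of 7 panels, all but Nupr1.

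Runx1t1 had the largest fold difference and the fewest reads. Its raw counts were 21, 75, 16 and 29 in Hdc-GFPhi replicates 1 to 4 and 5, 17, 11 and 9 in Hdc-GFPlo replicates 1 to 4, or 0.936, 3.5, 0.712 and 1.29 CPM against 0.221, 1.01, 0.609 and 0.456 CPM. Hdc-GFPhi replicate 2 stood well above the rest, and Hdc-GFPlo replicate 2 lay above 2 of the high libraries. The 5 counts of Hdc-GFPlo replicate 1 alone allow 0.0718 to 0.516 CPM (95% exact Poisson interval, counting error only). The means were 1.61 ± 1.28 and 0.574 ± 0.331 CPM (SD, n = 4 each), a log2 fold change of 1.5 ± 0.61 (SE, edgeR adjusted p = 0.368). Without Hdc-GFPhi replicate 2 it was 0.79 (adjusted p = 0.821), and without Hdc-GFPlo replicate 2 it was 1.91 (0.296). Within replicates 1 and 2 alone it was 1.88, and within replicates 3 and 4 alone 0.91.

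The other 2 members of the Runx1t1 family, Cbfa2t2 and Cbfa2t3, had far more reads than Runx1t1. Cbfa2t3, a corepressor of blood progenitors, averaged 245 ± 20.4 against 227 ± 10.3 CPM (SD, n = 4 each; log2 fold change 0.11). Cbfa2t2 had a log2 fold change of 0.15 (130 against 117 CPM). Of 18 genes of the ETO family and its partners, such as Runx1, Tal1, E proteins and histone deacetylases, edgeR called 0 in either direction. An unadjusted p under 0.05 was reached by 2 with a higher level and 2 with a lower one (5.33% and 5.56% of all tested genes). The 4 were Prkar2a, a protein kinase A subunit, and the stem cell factor Tal1 (log2 fold changes 0.50 and 0.28), and Tcf4, an E protein, and Runx2 (-0.39 and -0.23). The list median was -0.04. DESeq2, which called 404 genes in all against 126 for edgeR, called Tcf4 (adjusted p = 0.0111) and Prkar2a (0.0276). Their adjusted p values in edgeR were 0.0929 and 0.144.

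Nupr1 differed from the other 6 in its top Hdc-GFPhi library. It had 4.90, 2.94, 3.83 and 5.84 CPM in Hdc-GFPhi replicates 1 to 4 and 3.10, 2.02, 3.32 and 3.40 CPM in Hdc-GFPlo replicates 1 to 4. Of the high libraries, 3 lay above all low ones, and Hdc-GFPhi replicate 2, the top library for the other 6 genes, was the exception. For Fhl1 the lead of that library was slight (14.6 against 14.5 CPM in Hdc-GFPhi replicate 4). The log2 fold change was 0.56 ± 0.30 (SE, 95% interval -0.08 to 1.2, edgeR adjusted p = 0.547). Of 14 tested genes of the integrated stress response, in which Nupr1 acts with Atf4, Ddit3 and Trib3, edgeR called 0 and 0 reached an unadjusted p under 0.05. The list median was 0.15, with 10 of 14 values above 0. Eif2ak3 (PERK), Asns, Trib3 and Ddit3 had log2 fold changes of 0.31, 0.30, 0.42 and 0.20, while Atf4 was at 92.3 ± 14.8 and 92.0 ± 15 CPM (SD, n = 4 each).

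The family of Fhl1 gave no call either. Fhl3 and Fhl4 had log2 fold changes of -0.40 and 0.17, and Fhl2 of 0.25 at 0.548 against 0.467 CPM. Fhl5 had no count in any library. The signs of Fhl4 and Fhl2 turned when Hdc-GFPhi replicate 2 and replicate 1, respectively, were left out.

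Neo1 was the surface gene with the largest difference. Its raw counts were 43, 75, 41 and 45 in Hdc-GFPhi replicates 1 to 4 and 44, 18, 5 and 10 in Hdc-GFPlo replicates 1 to 4, or 1.92, 3.5, 1.83 and 2.01 CPM against 1.95, 1.07, 0.277 and 0.507 CPM. Hdc-GFPlo replicate 1 lay within the high fraction, while the other 3 low libraries lay below all high ones. The log2 fold change was 1.26 ± 0.53 (SE, 95% interval 0.12 to 2.41, edgeR adjusted p = 0.393). It was 1.90 without Hdc-GFPlo replicate 1 (adjusted p = 0.255) and 0.98 without Hdc-GFPlo replicate 3 (0.494). Within replicates 1 and 2 alone it was 0.83, and within replicates 3 and 4 alone 2.26.

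Of the 21 measured ligands, relatives and partners of neogenin, 7 had enough reads to test and edgeR called 0. Arhgef12 (LARG), a guanine nucleotide exchange factor that acts with neogenin, was the 1 gene with an unadjusted p under 0.05 (61.1 against 48.4 CPM, log2 fold change 0.34 ± 0.13). Such a p with a higher level was reached by 5.33% of all tested genes. The netrin receptor Unc5a had 12.6 ± 2.41 and 9.63 ± 2.56 CPM (SD, n = 4 each), and the BMP receptor Bmpr2 8.33 and 7.07 CPM. Ligands were sparse. Netrin Ntn3 averaged 3.52 and 2.73 CPM and Rgmb 0.920 and 0.751 CPM. Ntn1 had 28 counts in all high libraries together and 14 in all low ones, and Rgma 1 and 0. The close relative Dcc had 0 and 1.

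Jam2 had 2.81, 7.56, 3.78 and 3.70 CPM in Hdc-GFPhi replicates 1 to 4 and 3.14, 4.39, 2.55 and 2.18 CPM in Hdc-GFPlo replicates 1 to 4. The fractions overlapped, and Hdc-GFPhi replicate 2 was the 1 high library above all low ones. The log2 fold change was 0.54 ± 0.35 (SE, 95% interval -0.22 to 1.30, edgeR adjusted p = 0.662), and 0.16 without Hdc-GFPhi replicate 2 (adjusted p = 0.957).

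Among the relatives of Jam2, Esam was called higher in Hdc-GFPhi and the others were not called. Jam3, the main binding partner of Jam2, had 15.6, 20.7, 14.9 and 15 CPM in Hdc-GFPhi replicates 1 to 4 and 8.67, 12.5, 13.5 and 8.06 CPM in Hdc-GFPlo replicates 1 to 4. Its fractions did not overlap (log2 fold change 0.63 ± 0.21, SE, edgeR adjusted p = 0.223), and voom, which called 278 genes in all, called it (0.0419). The same separation was seen in 3.38% of tested genes. F11r (JAM-A) overlapped between fractions and averaged 55.5 ± 8.25 and 38.3 ± 11 CPM (SD, n = 4 each, log2 fold change 0.53, edgeR adjusted p = 0.255). Cxadr had 3.74 and 3.15 CPM (log2 fold change 0.25), and Igsf5 had 2 counts in each fraction. Of 11 tested genes of the JAM list, 1 was called higher (0.241% of all tested genes were), Esam (log2 fold change 0.88 ± 0.17, SE, adjusted p = 0.0253), and 0 lower. Leaving out high replicate 1, 2 or 3 or low replicate 1 or 4 ended that call, with adjusted p as high as 0.0929. An unadjusted p under 0.05 with a higher level was reached by 5 of the 11 (5.33% of all tested genes), among them Esam, Jam3, F11r and the tight junction gene Cldn5. The list median was 0.41. Of the integrin chains on the list, Itga4, Itgb1 and Itgb2 had log2 fold changes of -0.09, 0.07 and -0.05. Itgam had 86.5 ± 19.8 and 114 ± 26.0 CPM (SD, n = 4 each, log2 fold change -0.40, edgeR adjusted p = 0.474).

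Clu had the smallest difference. It had 2.90, 3.36, 1.47 and 2.67 CPM in Hdc-GFPhi replicates 1 to 4 and 3.23, 2.49, 2.22 and 2.23 CPM in Hdc-GFPlo replicates 1 to 4. Both the lowest and the highest of the 8 values lay in Hdc-GFPhi. The log2 fold change was 0.03 ± 0.33 (SE, edgeR adjusted p = 0.988), and its 95% interval of -0.68 to 0.74 leaves room for a difference of either sign. Its sign turned under 8 of 21 alternatives. Of 5 tested clusterin receptors and other extracellular chaperones, edgeR called 0. Haptoglobin (Hp) was the 1 gene with an unadjusted p under 0.05 (28.0 ± 2.59 against 38.1 ± 6.21 CPM, SD, n = 4 each, log2 fold change -0.45). Such a p with a lower level was reached by 5.56% of all tested genes. The clusterin receptors Vldlr and Lrp8 had log2 fold changes of -0.05 and 0.01, the first turning sign without Hdc-GFPlo replicate 2 and within replicates 3 and 4 alone.

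Aldh1a1 had 3.25, 5.74, 3.21 and 4.59 CPM in Hdc-GFPhi replicates 1 to 4 and 1.77, 4.63, 3.49 and 1.52 CPM in Hdc-GFPlo replicates 1 to 4. The low libraries of replicates 1 and 4 lay below all high ones, and the other low libraries lay among the high ones. The log2 fold change was 0.56 ± 0.38 (SE, 95% interval -0.26 to 1.38, edgeR adjusted p = 0.680). It ranged from 0.35 without Hdc-GFPlo replicate 4 to 0.90 without Hdc-GFPlo replicate 2. Aldh1a7 is a near copy: 6.54% of the 50-base stretches of the Aldh1a1 transcript also occur in it, and the handling of reads common to both is not stated. Aldh1a7 had 0, 5, 5 and 10 counts in Hdc-GFPhi replicates 1 to 4 and 14, 10, 1 and 0 in Hdc-GFPlo replicates 1 to 4, against 30 to 123 counts of Aldh1a1. The transcripts of the other 6 genes shared no 50-base stretch with another gene, and none of the 7 overlapped an exon of another gene in the annotation used.

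Around Aldh1a1, the retinoid pathway moved in no common direction. Of 10 tested genes, edgeR called 1 lower and 0 higher (0.707% and 0.241% of all tested genes), and the median was 0.11. The called gene, Dhrs3, which turns retinaldehyde back to retinol, had 51.2, 63.7, 41.8 and 42.7 CPM in Hdc-GFPhi replicates 1 to 4 and 76.1, 92.9, 87.8 and 74.5 CPM in Hdc-GFPlo replicates 1 to 4. It fell by 0.73 ± 0.15 on the log2 scale (SE, edgeR adjusted p = 0.0357). That call was lost without any library but Hdc-GFPhi replicate 2 (adjusted p up to 0.131) and just missed the threshold with no composition factor (0.0501). The receptor gene Rara had 12.1 ± 1.88 and 16.1 ± 3.02 CPM (SD, n = 4 each, log2 fold change -0.42, edgeR adjusted p = 0.415). The other retinaldehyde dehydrogenases were sparse: Aldh1a2 had 0 counts in all high libraries together and 10 in all low ones, and Aldh1a3 had 18 and 39.

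**Figure D2:**
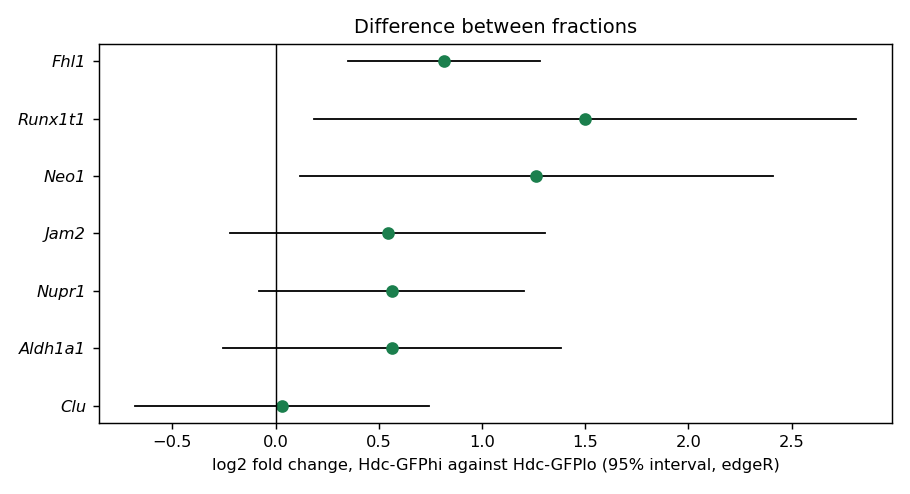
Log2 fold change of Hdc-GFPhi against Hdc-GFPlo for the 7 genes (x axis; points, edgeR estimate; lines, unadjusted 95% interval; 4 libraries a fraction). The intervals of Fhl1, Runx1t1 and Neo1 lie above 0 and those of Jam2, Nupr1, Aldh1a1 and Clu include it; none of the 7 passed the adjusted threshold.

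Per length, the 7 genes spanned a wide range of levels. CPM per kilobase of the longest coding transcript was 5.28 ± 1.52 for Nupr1 and 4.80 ± 0.875 for Fhl1 in Hdc-GFPhi (SD, n = 4 each). Aldh1a1 followed at 1.78 ± 0.514, Clu at 1.44 ± 0.445, Jam2 at 1.02 ± 0.483, Neo1 at 0.313 ± 0.108 and Runx1t1 at 0.264 ± 0.211. In Hdc-GFPlo the same scale gave 3.57 for Nupr1, 2.73 for Fhl1, 1.4 for Clu, 1.21 for Aldh1a1, 0.702 for Jam2, 0.129 for Neo1 and 0.0943 for Runx1t1. Fhl1 lay above Aldh1a1, and Jam2 above Neo1, with no overlap in either fraction. Nupr1 and Fhl1, Aldh1a1 and Clu, and Neo1 and Runx1t1 had overlapping ranges in both. Within libraries, Nupr1 lay above Fhl1 in 2 of 4 high and 4 of 4 low ones. All 7 were low genes here: by mean CPM they lay at percentiles 6.89 (Runx1t1) to 26.9 (Fhl1) of the tested genes.

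The genes did not vary as a single block between libraries. Hdc-GFPhi replicate 2 was the highest of its fraction for 6 of the 7, though by little for Fhl1, and in the low fraction no library was highest for more than 3. Across the 8 libraries, 17 of 21 pairs of genes had a positive Pearson r of log2 CPM (median 0.38). After each fraction's mean was subtracted, 12 of 21 did (median 0.04). Within fractions, Aldh1a1, Jam2 and Runx1t1 went together (r = 0.67 for Aldh1a1 with Jam2, 0.80 for Aldh1a1 with Runx1t1 and 0.72 for Jam2 with Runx1t1). Nupr1 ran against Jam2 (r = -0.85). For Aldh1a1, Jam2 and Runx1t1, replicate 2 was the highest library in both fractions, and for Nupr1 it was the lowest in both. The r values rest on 8 libraries and counts as low as 5. They share each library's depth and amplification, so they describe these libraries only.

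**Figure D3:**
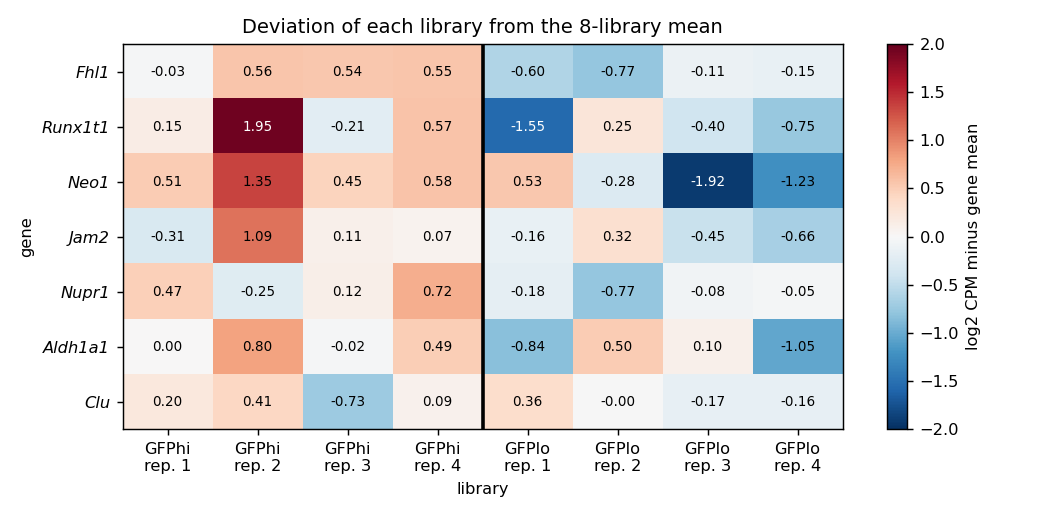
Log2 CPM of each library minus the gene's mean over 8 libraries (colour and printed value), with Hdc-GFPhi to the left of the line. Hdc-GFPhi replicate 2 is high for Runx1t1, Neo1, Jam2 and Aldh1a1. The Fhl1 row is below 0 in all Hdc-GFPlo libraries and slightly below 0 in Hdc-GFPhi replicate 1. The Clu row has no split at the line.

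The genes whose profile over the 8 libraries was most like each member were listed among 10552 genes with at least 50 counts on average. For Fhl1 they were Rps6ka6, a ribosomal S6 kinase (r = 0.99), Slamf1, the CD150 receptor of stem cells (0.97), and Ptrf, the caveolar coat protein cavin-1 (0.96). For Aldh1a1 they were Ifitm1, Tmem40 and Spic (0.97, 0.96 and 0.96), for Nupr1 H2afx, Pdp2 and H2-Q8 (0.96, 0.96 and 0.94), for Jam2 Abca5, Zfp28 and Ctnnb1 (0.95, 0.94 and 0.94), and for Clu Tspyl1, Gpbp1l1 and Ptov1 (0.97, 0.96 and 0.93). Between 43 (Clu) and 154 (Aldh1a1) of the 10552 genes had an r over 0.8 with a member. The genes named are the highest of that pool on 8 libraries, so the lists are a description only. Neo1 and Runx1t1 had too few counts for this list.

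Further markers of aged or myeloid-leaning stem cells gave no edgeR call either. Of 17 tested, edgeR called 0, and DESeq2, which called 404 genes in all, called Itga2b and Slamf1. An unadjusted edgeR p under 0.05 was reached by 3, all with a higher level (5.33% of all tested genes did). The median was 0.29 and 13 of 17 values were above 0. The 3 were Itga2b, the CD41 integrin chain (79.4 ± 11.7 against 48.3 ± 12.9 CPM, SD, n = 4 each), Slamf1 (18.0 ± 3.24 against 10.3 ± 3.68 CPM) and Nbea, a membrane-trafficking scaffold (10.4 ± 3.86 against 5.08 ± 2.64 CPM). Their edgeR adjusted p values were 0.0862, 0.185 and 0.307. Ehd3, an endosomal protein, averaged 9.03 and 6.29 CPM, and Vwf, the platelet adhesion protein of platelet-biased stem cells, 26.7 ± 8.32 and 17.1 ± 9.13 CPM. The genes of this list with values below 0 were Cd38 (log2 fold change -0.46), Mt1 (-0.43), Sdpr (-0.22) and Gda (-0.21). The opposite programme, lymphoid priming, had 9 of 14 genes called lower, 0 higher and a median of -1.17 (0.707% of all tested genes were called lower). They ran from Il7r, the interleukin-7 receptor (log2 fold change -2.73), and Dntt, the terminal transferase of lymphocyte precursors (-2.32), to the kinase Lck (-0.59), which lost its call without Hdc-GFPhi replicate 1, 3 or 4 or without Hdc-GFPlo replicate 1 (adjusted p up to 0.0867). Both lists were chosen with earlier results of these data known, so their counts and medians are a description and no test.

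**Figure D4:**
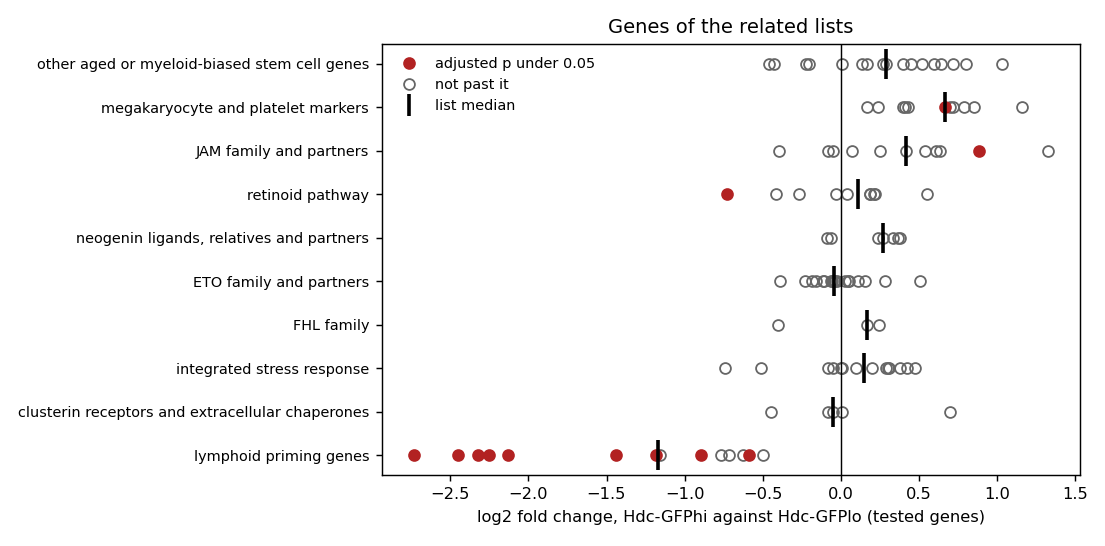
Log2 fold change of Hdc-GFPhi against Hdc-GFPlo (x axis) for each tested gene of 10 lists (rows); filled red points passed the adjusted threshold of 0.05 and black bars are list medians. The lymphoid priming genes all lie below 0 (median -1.17), and the other lists sit around medians of -0.05 to 0.66.

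Markers of other cells were read beside these values. Of 11 tested megakaryocyte and platelet genes all 11 had values above 0, 1 was called higher, 5 reached an unadjusted p under 0.05 with a higher level and Gp6 had no count (0.241% and 5.33% of all tested genes were called higher and reached that p). The summed level of the genes reported here was 125 to 164 CPM in Hdc-GFPhi and 85.0 to 128 CPM in Hdc-GFPlo. Stromal and endothelial genes summed to 265 to 342 and 249 to 348 CPM with 0 of 8 tested called, 5 of 8 above 0 and a median of 0.31. Tek, which stem cells also express, had 51.1 ± 15.8 and 28.1 ± 9.97 CPM (SD, n = 4 each, log2 fold change 0.86, no overlap, edgeR adjusted p = 0.173). Such separation, high above low, was seen in 3.38% of tested genes. The 5 genes too low to test had, in all high and all low libraries together, 12 and 15 counts for Cdh5, 28 and 29 for Col1a1, 11 and 2 for Col3a1, 1 and 3 for Lepr, and 12 and 1 for Pdgfra. B cell markers summed to 97.1 to 180 and 290.5 to 565 CPM, with 4 of 8 called lower (0.707% of all tested genes were). Basophil and mast cell markers summed to 11 to 68.0 CPM in Hdc-GFPhi and 6.41 to 96.0 CPM in Hdc-GFPlo, with 0 of 3 tested called. Of those too low to test, Ms4a2 had 118 counts in all high libraries together and 6 in all low ones, Cma1 84 and 1, Tpsb2 91 and 0, and Fcer1a 21 and 19. Most of the Cma1 and Tpsb2 counts (70 and 84) lay in Hdc-GFPhi replicate 3. Among the tested ones, Prss34 had 0, 777, 494 and 1069 counts in high replicates 1 to 4. In low replicates 1 to 4 it had 0, 0, 1120 and 3. The highest low sum thus rested mostly on low replicate 3, where Prss34 alone gave 62.0 CPM. Neutrophil and monocyte markers summed to 1874 to 2507 CPM in Hdc-GFPhi and 2372 to 3090 CPM in Hdc-GFPlo. All 11 tested had values below 0 (median -0.50), and 2 were called lower (0.707% of all tested genes were): Ly6c2 (log2 fold change -1.17, edgeR adjusted p = 0.00817) and Ccr2 (-1.36, 0.0286). With 1 library left out, Ly6c2 stayed called, while the Ccr2 call ended in each such fit (adjusted p as high as 0.112) except those that omit high replicate 2 or low replicate 3. An unadjusted p under 0.05 with a lower level was reached by 4 of the 11 (5.56% of all tested genes). The part of these cells in the levels of the 7 genes was not tested. The LSK gate itself showed in Kit (1460 ± 110 and 1195 ± 315 CPM, SD, n = 4 each) and Ly6a, which encodes Sca-1 (125 ± 19.0 and 119 ± 16.9 CPM). Their log2 fold changes were 0.29 and 0.06. In a wider list of 6 surface marker genes, of which only Kit and Ly6a define the gate, edgeR called 0. In that list 3 had values above 0 and the median was -0.04. An unadjusted p under 0.05 was reached by 1 with a higher level and 2 with a lower one (5.33% and 5.56% of all tested genes). Kit and Ly6a were not among them.

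**Figure D5:**
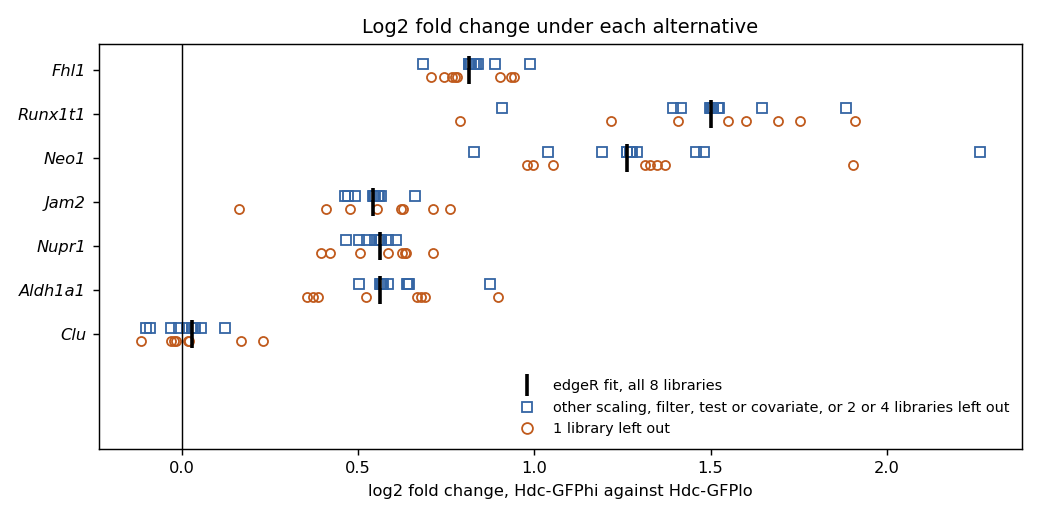
Log2 fold change of each gene (x axis) in the edgeR fit to all 8 libraries (black bar), under other scalings, filters, tests, covariates or smaller sets of replicates (blue squares) and with 1 library left out (orange circles). Values stay above 0 for all genes but Clu, those of Fhl1 span 0.68 to 0.99, and those of Neo1 reach from 0.83 to 2.26.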

How the data were processed

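The data were raw read counts per gene symbol in 8 libraries, deposited by the authors as whole numbers without normalization, with totals of 16726179 to 23051277. The submitters' processing notes name HTSeq 0.6.1, TopHat2 (as version 2.04), Bowtie2 and bcl2fastq 1.8.4, and the build mm9. For annotation, strand setting and multiply mapped reads nothing is given in the sources used here. Per the labels' protocols, RNA of 2000 sorted cells was amplified with a SMARTer kit and made into Nextera XT libraries, with no molecular identifiers.

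Groups and replicate numbers came from sample titles, and columns were tied to samples by their library codes. Libraries of the same fraction differed by more than sampling noise in every pair (chi-square per degree of freedom 13.3 to 55.4). Genes were kept with filterByExpr (13300 of 23284), scaled by TMM and tested with edgeR 4.0.16 (glmQLFit, robust, glmQLFTest) in R 4.3.3 with no covariate, adjusted over all tested genes. The code was tested on simulated data. Log2 CPM used a prior count of 2. Intervals rest on the spread between libraries, and Poisson intervals cover counting error only. Alternatives used DESeq2 1.42.0, limma 3.58.1, other scalings and filters, a replicate block, a split of replicates and left-out libraries; the fits on replicates 1 and 2 alone and 3 and 4 alone were chosen after seeing the data. Lengths came from GENCODE M21, and sequences from RefSeq (GRCm38.p6), matched by symbol.

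The members and lists were chosen with earlier results of these data known. Named genes are the 7 members, the called genes and up to 4 with the smallest p of each list, and for each member with at least 50 counts on average the 3 genes of highest r; further relatives, ligands and markers were named after their values were seen. A few genes the rule would name are not reported here.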

Additional observations from a re-analysis of the deposited data

Results flagged for a closer look

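In 14 groups of 4 values (7 genes in each fraction, log2 CPM), the gap of the outermost library to its neighbour was compared with the group's range, and 2 exceeded Dixon's critical ratio for 4 samples. Chance flags about 1 in 20 such groups. Fhl1 was low in Hdc-GFPhi replicate 1 (3.29 log2 CPM against 3.86 to 3.88, ratio 0.970), and without that library its log2 fold change was 0.94 (edgeR adjusted p = 0.0909). Neo1 was high in Hdc-GFPhi replicate 2 (1.85 against 0.94 to 1.07, ratio 0.857), and without it the log2 fold change was 0.995 (edgeR adjusted p = 0.707).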

How the results depend on the processing

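Aldh1a1, Nupr1, Neo1, Fhl1, Jam2 and Runx1t1 had a log2 fold change above 0 under every alternative run (20 for Neo1 and Runx1t1, which the filter of at least 50 counts in 4 libraries removes, and 21 for the others). The number of the 7 genes called was 1 (Fhl1) with DESeq2 and with replicates 1 and 2 set apart from 3 and 4 by a covariate, and 0 under the rest, including 0 in each fit with 1 library left out. Clu turned below 0 with voom (-0.089), with the replicate block (-0.0059), with high replicate 4 and low replicate 3 both left out (-0.030) and within replicates 3 and 4 alone (-0.10); with 1 library left out it ran from -0.12 to 0.23. The count of all called genes (126) was 404 with DESeq2, 278 with voom, 224 with the replicate block, 275 with that covariate, 34 within replicates 1 and 2 alone and 19 within replicates 3 and 4 alone, and with 1 library left out it ran from 52 (without Hdc-GFPlo replicate 1) to 146. It was 68 without Hdc-GFPhi replicate 3. The cause was not tested, beside the smaller number of libraries in the left-out fits. With the replicate block Fhl1 had an adjusted p of 0.0640. Same-numbered libraries of the fractions deviated together with r of 0.383, 0.519, 0.115 and 0.0956 for replicates 1 to 4, and high replicates 3 and 4 correlated best with low replicates 4 and 3, so the numbers were not taken as pairs. Every high library had a positive r with the low libraries of its own set, replicates 1 and 2 or replicates 3 and 4 (0.0956 to 0.519). With the low libraries of the other set every r was negative (-0.386 to -0.112). The main fit had no term for this split, and what lies behind it was not tested. Among 36 other named genes, 8 of 755 values turned sign. With 1 library left out, Fhl2 ran from -0.14 to 0.49, Fhl4 from -0.096 to 0.42, Vldlr from -0.099 to 0.040 and Serpinh1, a collagen chaperone, from -0.18 to 0.21. Within replicates 3 and 4 alone, Ehd3 was at -0.12, Vldlr at 0.065 and Serpinh1 at 0.038. Depth limits Runx1t1 and Neo1 most, at 5 counts in their lowest libraries.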
